A study of Mus musculus with 96 samples.

Results

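The 10 genes described here belong to the mouse circadian clock: Clock, Npas2, Per1, Per2, Per3, Cry1, Nr1d1, Nr1d2, Dbp and Ciart. They were taken by gene symbol from a table of 56941 gene rows, each symbol naming 1 row, and all 10 passed the filter on low counts of the test between tissues. The table holds 96 RNA-seq libraries of 2-month-old mice: 7 of spleen, 14 of heart and 15 from each of the other tissues, which are brain, kidney, liver, skeletal muscle and small intestine. The study compared wild-type (WT) mice with mice of 4 strains that can be reprogrammed (4Fj, 4FsA, 4FsB and 4Fk), with spleen from WT, 4Fj and 4FsA only. Reprogrammable strains in general carry inducible transgenes for the Yamanaka factors, and no inducer, promoter, sex or number of founder clones is given in the sources used here. The column names carry the tissue and a running number but no genotype, so the groups here are tissues, each holding libraries of all the genotypes sampled for it. Replicates are listed as separate samples, but nothing says whether tissues came from the same animals. The hour at which tissues were taken is not given in the sources used here. Within a tissue, differences between genotypes, between hours of collection and between animals therefore cannot be told apart.

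The clock is a loop of transcription and delayed repression that runs in nearly every cell of the body. A dimer of Bmal1 (gene Arntl) with Clock or its paralog Npas2 binds E-boxes and drives Per, Cry, Nr1d1, Nr1d2, Dbp and Ciart. The Per and Cry proteins then enter the nucleus and block the dimer. The nuclear receptors Nr1d1 and Nr1d2 (REV-ERB alpha and beta) repress Arntl, Clock, Npas2 and Cry1 through ROR elements. Genes of the activating and the repressing arm consequently peak at opposite times of day in peripheral organs such as liver, and Dbp, a D-box activator, is among the genes of largest daily amplitude there. Per1 can also be induced directly by glucocorticoids and by signals that act through cyclic AMP. Arntl is not among the 10 genes, but since it sets the opposite phase it is shown beside them as the reference.

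The elements of this loop can be read in the upstream sequences of 4 of the genes, which are shown because they hold the E-box and D-box letters named above. The 250 bases before the annotated start were taken from RefSeq (GRCm38.p6), 5′ to 3′ on the strand of the gene, and capitals mark the E-box CACGTG or the D-box TTATGTAA, searched on both strands. The 2 motifs do not overlap one another. In this window, Ciart, a repressor of the Clock–Bmal1 dimer, has 3 E-boxes that begin 116, 58 and 44 bases before the start. Per3, the period paralog, has 2 D-boxes that begin 205 and 158 bases before it. The window of Cry1, a repressor that works with the Per proteins, has 1 E-box, and so has the window shown for Per1. The window of another annotated start of Per1 has neither motif. A row for 9 of the 10 genes was found in the RefSeq table, and Per2 was not among them.
Ciart, chr3:95882229-95882478, minus strand: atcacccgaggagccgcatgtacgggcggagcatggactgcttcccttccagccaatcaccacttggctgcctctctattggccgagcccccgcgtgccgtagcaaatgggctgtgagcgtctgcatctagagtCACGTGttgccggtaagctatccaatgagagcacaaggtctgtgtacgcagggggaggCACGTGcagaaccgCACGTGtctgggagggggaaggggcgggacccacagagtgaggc
Per3, chr4:151044666-151044915, minus strand: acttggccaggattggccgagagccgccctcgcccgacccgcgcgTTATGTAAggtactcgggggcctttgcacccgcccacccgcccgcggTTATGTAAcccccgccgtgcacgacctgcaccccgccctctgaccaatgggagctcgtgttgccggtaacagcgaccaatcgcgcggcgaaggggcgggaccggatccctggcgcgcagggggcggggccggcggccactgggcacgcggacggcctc
Cry1, chr10:85185055-85185304, minus strand: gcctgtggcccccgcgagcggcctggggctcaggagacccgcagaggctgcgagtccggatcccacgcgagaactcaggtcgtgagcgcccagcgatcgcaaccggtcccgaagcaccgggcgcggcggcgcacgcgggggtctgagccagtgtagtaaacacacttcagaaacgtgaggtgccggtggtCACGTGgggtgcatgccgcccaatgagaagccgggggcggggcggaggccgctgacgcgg
Per1, chr11:69098699-69098948, plus strand: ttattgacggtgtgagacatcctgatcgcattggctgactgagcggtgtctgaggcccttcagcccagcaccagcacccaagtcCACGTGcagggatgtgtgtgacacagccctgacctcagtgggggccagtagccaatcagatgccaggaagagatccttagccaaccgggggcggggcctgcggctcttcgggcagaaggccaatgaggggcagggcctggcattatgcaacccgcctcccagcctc
Among 32851 upstream windows of this length in the table, 6.02% hold at least 1 E-box, 0.0609% hold 3 or more, 0.819% hold at least 1 D-box and 0.0183% hold 2 or more. The letters of both motifs, of the ROR element core TAGGTCA and of the cyclic AMP element TGACGTCA were not found in the windows of Clock, Npas2, Nr1d1, Nr1d2 and Dbp. A match is a stretch of letters and not a measured binding site.

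The libraries held 6624474 to 17882603 estimated counts (median 11317947), so that 3 counts are worth 0.168 to 0.453 CPM (the count divided by the library total, times 1000000). The markers of each labelled tissue were at their highest summed level in that tissue. Small intestine libraries 5 and 6 (running numbers of the columns) had 62.3% and 78.8% of their counts in mitochondrially encoded genes, and in library 6 Arntl and every member other than Dbp were at their lowest level for that tissue. Brain libraries 1 to 3 and spleen library 4 stood apart from the rest of their tissue in several members. Many correlations of the members are therefore given with and without these libraries. The correlations of other genes with Dbp, and the ranks built on them, include these libraries. Libraries with neighbouring running numbers were also closer in level than all pairs of a tissue for 69 of 77 combinations of gene and tissue. In brain, for example, the median difference of Per1 between neighbours was 0.18, against 0.60 between all pairs (log2 scale). The permutation tests below treat the libraries of a tissue as exchangeable, and p-values measure only the spread between these libraries. Where neighbouring libraries hold similar levels, such p-values can be too small. In the GENCODE vM21 annotation, 18.0% of the exon bases of Dbp overlap Sphk2, and 8.55% of those of Nr1d1 overlap Thra, both on the opposite strand. Whether the counting used strand is not given, so reads of these stretches cannot be assigned to a gene with certainty.

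Spleen had the most clock genes called, all of them at a low level. Of the 10 genes, 8 were lower in spleen than in the mean of the other tissues by at least 2-fold with an adjusted p below 0.05, and none was higher. Among all 20100 genes tested, 20.5% were lower and 21.8% higher in spleen by the same rule. The median log2 fold change of the 10 genes was -1.71 in spleen, against -0.09 over all genes. In skeletal muscle 4 members were higher and 1 lower (background 18.8% and 26.2%), with a median of 0.83 against -0.31 over all genes. In brain 3 were higher and none lower (29.4% and 24.1%), and in small intestine 2 were higher and 3 lower (22.2% and 19.7%). The counts of higher members in these 2 tissues were near the share of all genes. Liver had 1 member in each direction (18.8% and 21.5%), heart 1 higher (18%, 18.7% lower), and kidney 1 lower (14%, 18.4% higher), counts near the share of all genes. Libraries of different tissues share running numbers, and a fit with that number as a block, chosen after seeing the data, ended the calls of Clock in spleen, Ciart in liver and Per1 in heart and added calls of Dbp in brain and small intestine, given below. In bulk tissue, fewer cells of a type and less RNA per cell cannot be told apart.

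**Figure D1:**
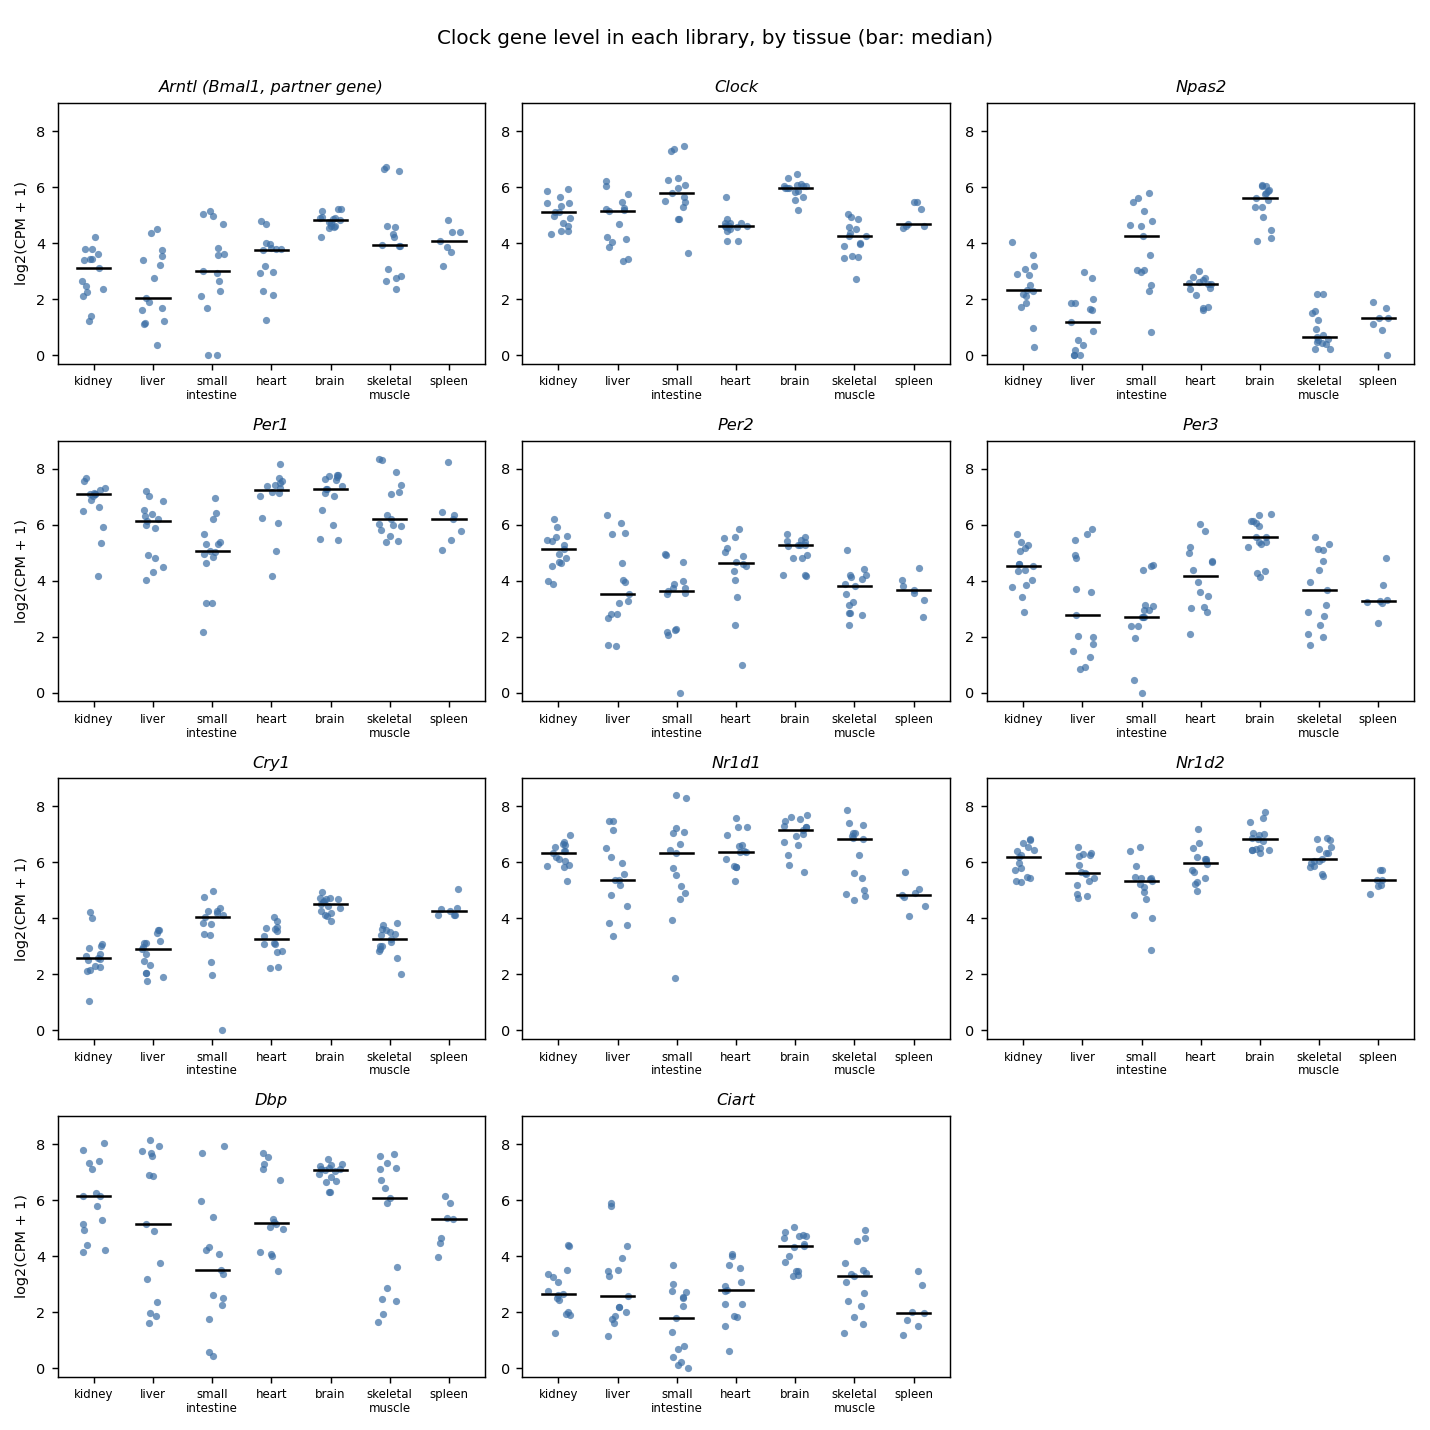
Level of Arntl and the 10 clock genes in each of 96 libraries, as log2(CPM + 1) on the y axis against tissue on the x axis. Each point is 1 library and each bar the median; Dbp spans the y axis in liver, small intestine and skeletal muscle but only 77.3 to 178 CPM in brain.

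Of the activators, Clock encodes the histone acetyltransferase partner of Bmal1 and was present in every library. It ranged over 11.4 to 176 CPM (median 54.7) in small intestine, 35 to 87.9 CPM (median 61.6) in brain, 9.17 to 72.6 CPM (median 34.3) in liver and 22.1 to 43.4 CPM (median 24.9) in spleen. Its mean level after scaling was highest in small intestine (63.6 CPM, above brain by 0.60 on the log2 scale, adjusted p = 0.00143). It was lowest in spleen (17.4 CPM, below kidney by 0.64 on the log2 scale, adjusted p = 0.00995). Neighbours between these ends of the order, from brain through liver, heart and skeletal muscle to kidney, did not differ beyond their spread. The log2 fold change of Clock in spleen, -1.03 ± 0.20 (SE, adjusted p = 9.04e-06), became -0.99 with DESeq2 and with its size factors and -0.94 with the running number as a block, just under the 2-fold limit.

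Npas2, the paralog that can replace Clock in the dimer, ran from 31 CPM in brain to 0.808 CPM in spleen after scaling. It ranged over 15.8 to 66.9 CPM (median 48.2) in brain, 0.766 to 54.4 CPM (median 18) in small intestine, 0.234 to 15.5 CPM (median 4.07) in kidney, 2.02 to 7.08 CPM (median 4.8) in heart, 0 to 6.78 CPM (median 1.25) in liver, 0 to 2.73 CPM (median 1.51) in spleen and 0.162 to 3.54 CPM (median 0.555) in skeletal muscle. The brain libraries did not overlap with those of kidney, heart, liver, spleen or skeletal muscle, though the lowest brain value (15.8 CPM) lay just above the highest kidney value (15.5 CPM). Against the mean of the other tissues, the log2 fold change of Npas2 was 3.24 ± 0.28 (SE, adjusted p = 3.46e-19) in brain and 2.49 ± 0.28 (SE, adjusted p = 5.08e-13) in small intestine. It was -2.88 ± 0.59 (SE, adjusted p = 1.93e-05) in spleen and -1.64 ± 0.39 (SE, adjusted p = 0.000131) in skeletal muscle. Brain and small intestine did not differ beyond their spread (adjusted p = 0.159), and the step from small intestine down to heart was 1.95 on the log2 scale, adjusted p = 7.75e-05. The step from kidney down to liver also passed (1.08 on the log2 scale, adjusted p = 0.0326).

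Of the period genes, which encode the repressors that accumulate with a delay, Per1 was highest after scaling in skeletal muscle (183 CPM) and heart (162 CPM). It ranged over 40.9 to 321 CPM (median 73.7) in skeletal muscle, 16.9 to 288 CPM (median 151) in heart, 42.7 to 219 CPM (median 156) in brain, 17.2 to 205 CPM (median 136) in kidney, 15.3 to 145 CPM (median 70.2) in liver, 33 to 299.9 CPM (median 73.6) in spleen and 3.55 to 123 CPM (median 32.2) in small intestine. The ranges of all tissues overlapped. The unscaled median of Per1 in skeletal muscle was below those in heart, brain and kidney. Skeletal muscle libraries 10 to 12 stood at 236 to 321 CPM and the rest of that tissue at no more than 170 CPM. Per1 was 1.22 ± 0.21 (SE, adjusted p = 4.65e-07) on the log2 scale in skeletal muscle and -1.54 ± 0.26 (SE, adjusted p = 2.95e-07) in small intestine against the mean of the others. The value in heart, 1.02 ± 0.22 (SE, adjusted p = 5.11e-05), fell to 0.96 without the 2 small intestine libraries rich in mitochondrial counts to 0.95 with no filter on low counts and to 0.93 with the running number as a block, just under the 2-fold limit. No step between neighbours in the order of Per1 passed the test.

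Per2 and Per3 overlapped between most tissues. Per2 ranged over 13.6 to 72.3 CPM (median 33.8) in kidney, 17.1 to 49.7 CPM (median 37.7) in brain, 0.985 to 57.2 CPM (median 23.9) in heart, 2.15 to 81.3 CPM (median 10.4) in liver, 4.3 to 33.7 CPM (median 12.9) in skeletal muscle, 0 to 30.1 CPM (median 11.5) in small intestine and 5.53 to 21 CPM (median 11.7) in spleen. Its only call was in spleen, at -1.73 ± 0.49 (SE, adjusted p = 0.00174). Per3 ranged over 16.6 to 82.5 CPM (median 46.5) in brain, 6.39 to 49.7 CPM (median 22.2) in kidney, 3.31 to 64.7 CPM (median 17.2) in heart, 0.808 to 56.4 CPM (median 5.86) in liver, 2.24 to 46.5 CPM (median 11.8) in skeletal muscle, 4.63 to 27.2 CPM (median 8.75) in spleen and 0 to 22.4 CPM (median 5.48) in small intestine. Per3 was higher in brain, at 1.13 ± 0.33 (SE, adjusted p = 0.00132), and lower in small intestine, at -1.20 ± 0.39 (SE, adjusted p = 0.00571), and in spleen, at -1.69 ± 0.58 (SE, adjusted p = 0.00929). Its one step between neighbours that passed was from liver down to small intestine (1.19 on the log2 scale, adjusted p = 0.0229).

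Cry1 is the cryptochrome that holds the dimer in its repressed state. Its unscaled medians ran from 4.95 CPM in kidney through 6.56 in liver, 8.61 in skeletal muscle, 8.64 in heart, 15.7 in small intestine and 18 in spleen to 21.9 in brain. The lowest and highest libraries were 1.08 and 17.9 CPM in kidney and 13.9 and 30.0 CPM in brain. Cry1 was lower in kidney than in the mean of the other tissues, at -1.20 ± 0.20 (SE, adjusted p = 3.62e-07), and was not called elsewhere. The step from liver down to kidney was 0.58 on the log2 scale, adjusted p = 0.0372. Ciart, the repressor with 3 E-boxes shown above, ranged over 8.71 to 31.6 CPM (median 19.8) in brain, 1.4 to 29.2 CPM (median 8.68) in skeletal muscle, 0.537 to 16 CPM (median 5.84) in heart, 1.4 to 20.0 CPM (median 5.26) in kidney, 1.21 to 58.7 CPM (median 4.99) in liver, 1.29 to 10.0 CPM (median 2.9) in spleen and 0 to 12 CPM (median 2.45) in small intestine. It was higher in liver (log2 fold change 1.28 ± 0.32, SE, adjusted p = 0.000325), where libraries 4 and 9 stood at 58.7 and 54.6 CPM against at most 19.4 CPM in the other 13, and with the running number as a block the value fell to 0.80, under the 2-fold limit (edgeR, adjusted p = 0.0181). It was also higher in skeletal muscle (1.21 ± 0.32, SE, adjusted p = 0.00068) and brain (1.04 ± 0.32, SE, adjusted p = 0.00298), and lower in small intestine (-1.51 ± 0.40, SE, adjusted p = 0.000623) and spleen (-1.97 ± 0.59, SE, adjusted p = 0.00282). The brain value fell to between 0.91 and 0.95, under the 2-fold limit, with no filter on low counts, without the mitochondrial genes and without the 2 small intestine libraries.

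The REV-ERB receptors, the heme-binding repressors of Arntl, were both highest in skeletal muscle after scaling and lowest in spleen. Nr1d1 ranged over 24.5 to 234 CPM (median 114) in skeletal muscle, 39.2 to 190.3 CPM (median 82.7) in heart, 2.65 to 339.7 CPM (median 79.6) in small intestine, 49.1 to 204 CPM (median 140.3) in brain, 9.45 to 179 CPM (median 40.5) in liver, 39.2 to 126 CPM (median 79.6) in kidney and 16.2 to 49.9 CPM (median 27.4) in spleen. Nr1d1 was 1.08 ± 0.24 (SE, adjusted p = 4.32e-05) on the log2 scale in skeletal muscle and -2.54 ± 0.45 (SE, adjusted p = 8.38e-07) in spleen against the mean of the others. The step of Nr1d1 from kidney down to spleen was 1.98 on the log2 scale, adjusted p = 0.00014, and no other step between neighbours passed. Nr1d2 ranged over 44.2 to 117 CPM (median 69.3) in skeletal muscle, 79.3 to 221 CPM (median 113) in brain, 30.5 to 145 CPM (median 62.7) in heart, 25.7 to 93.6 CPM (median 48) in liver, 38.1 to 113 CPM (median 72.5) in kidney, 6.41 to 91.9 CPM (median 39.8) in small intestine and 28 to 52 CPM (median 40.1) in spleen. Against the mean of the others Nr1d2 was 1.27 ± 0.16 (SE, adjusted p = 8.52e-12) in skeletal muscle and -1.63 ± 0.28 (SE, adjusted p = 2.72e-07) in spleen. Both receptors had higher unscaled CPM medians in brain than in skeletal muscle, and the order given here is that after scaling. The steps from skeletal muscle down to brain (0.63 on the log2 scale, adjusted p = 0.00863) and from small intestine down to spleen (0.93 on the log2 scale, adjusted p = 0.0045) passed for Nr1d2.

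Dbp, the D-box activator that carries the rhythm to output genes, spread widely in most tissues. It ranged over 16.7 to 259 CPM (median 69.1) in kidney, 2.05 to 281 CPM (median 34.8) in liver, 0.361 to 245 CPM (median 10.3) in small intestine, 10.1 to 204 CPM (median 35.3) in heart, 77.3 to 178 CPM (median 133) in brain, 2.14 to 199 CPM (median 66.1) in skeletal muscle and 14.6 to 70.3 CPM (median 39.2) in spleen. In kidney, liver, small intestine, heart and skeletal muscle the ranges overlapped, and every brain library was above every spleen library. The only call without a block was in spleen, at -1.95 ± 0.79 (SE, adjusted p = 0.0299), and no step between neighbours in the order passed the test. With the running number as a block, Dbp was called higher in brain and lower in small intestine. The brain value went from 0.38 (adjusted p = 0.471) to 1.52 (9.06e-05) and that in small intestine from -0.70 (0.225) to -1.71 (0.000333), both by edgeR.

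Of 16 other clock genes on a list that includes Arntl, the REV-ERB antagonist Rora, the D-box factors Tef and Hlf, their repressor Nfil3 and the casein kinases, 9 were higher and none lower in skeletal muscle, where 18.8% and 26.2% of all genes were. In brain 8 were higher and 3 lower (29.4% and 24.1% of all genes). In small intestine none was higher and 8 were lower (22.2% and 19.7%), and in spleen 2 were higher and 7 lower (21.8% and 20.5%). Heart had 5 higher and none lower (18% and 18.7%). Liver had 3 and 4 (18.8% and 21.5%) and kidney 2 and 4 (18.4% and 14%), counts near the share of all genes. Rora, an activator at the ROR element, was higher in skeletal muscle by 3.50 ± 0.19 (SE, adjusted p = 3.22e-32). Hlf, a D-box activator, was higher in brain by 3.42 ± 0.21 (SE, adjusted p = 1.34e-27). Arntl itself was highest in skeletal muscle, at 2.11 ± 0.29 (SE, adjusted p = 3.26e-10), where libraries 10 to 12 stood at 93.3 to 105 CPM and the other 12 at no more than 23.5 CPM.

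How far the members spread within a tissue was measured as the 90th minus the 10th percentile of log2(CPM + 1) over its libraries, ranked among all genes of that tissue with a median of at least 1 CPM. Dbp lay at percentile 98.9 in kidney, 99.6 in liver, 98.6 in small intestine, 99.4 in heart and 99.8 in skeletal muscle. In brain it lay at only 38.9, and in spleen at 81.8. Its highest library exceeded the lowest 137-fold in liver and 92.9-fold in skeletal muscle, against 2.3-fold in brain. Per3 was the member next to Dbp in liver (percentile 98.5) and skeletal muscle (96.2). In heart it lay at 97.8, below Per2 (98.4), and in brain at 95.2. It was at 87.4 in kidney, 77.7 in small intestine and 66.7 in spleen.

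At the other end Clock lay below the median of all genes in spleen, skeletal muscle, small intestine, heart and brain, with percentiles of 19.8 in heart and 20.9 in brain. Cry1 was below the median in liver, small intestine, brain, skeletal muscle and spleen, and Nr1d2 in liver, small intestine, skeletal muscle and spleen. The place of Nr1d2 depended on scaling. With TMM within the tissue, a normalisation that trims extreme genes, it lay at 54.7 in liver, 56.1 in small intestine and 67.2 in skeletal muscle. Clock in kidney went from 67.9 to 31.7 by the same change. Per1 was the member of widest spread in brain (percentile 96) and spleen (85.3). Over the 10 members the median percentile was 90.2 in liver, 87.5 in heart, 84.1 in kidney, 80.1 in brain, 64.2 in small intestine and 59.8 in spleen. In skeletal muscle 9 members were ranked, since Npas2 fell under a median of 1 CPM there, and 4 of them (Dbp, Per3, Ciart and Per1) lay between percentiles 91.2 and 99.8.

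**Figure D2:**
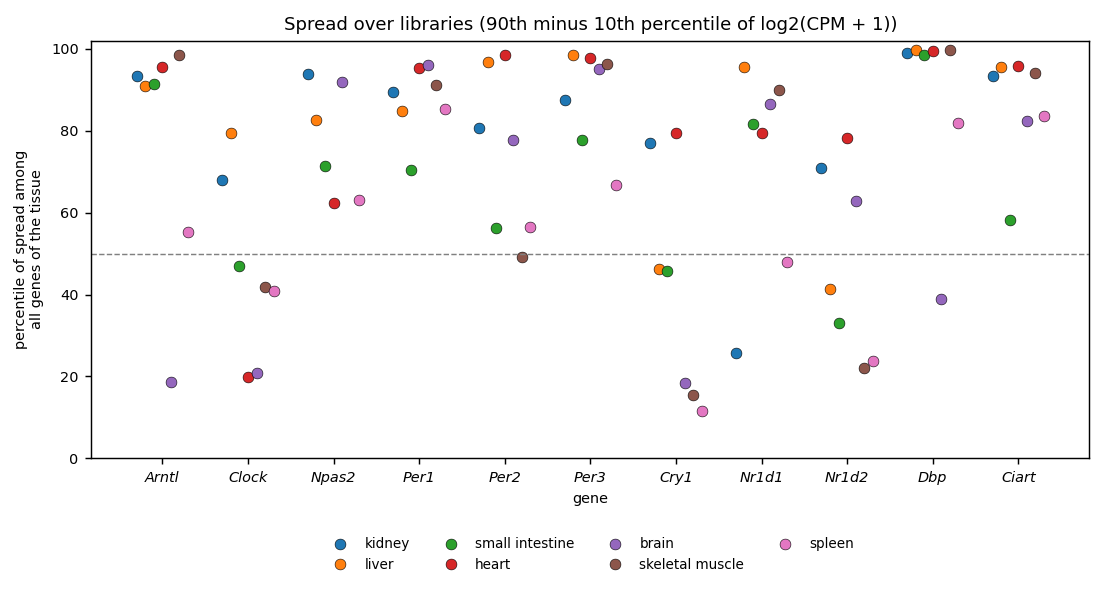
Percentile of the spread of each clock gene over the libraries of a tissue, among all genes of that tissue with a median of at least 1 CPM (y axis), for Arntl and the 10 genes (x axis), with tissues in colour. Dbp sits at percentile 98.6 to 99.8 in 5 tissues and at 38.9 in brain, whereas Clock, Cry1 and Nr1d2 reach below the dashed median line in several tissues. The percentiles shown use CPM without TMM scaling.

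The relations between the genes over the libraries of each tissue were measured by Pearson correlation of log2(CPM + 1). With Arntl included there were 55 pairs in each of 7 tissues, 385 in all, and 154 passed an adjusted permutation p of 0.05. How many pairs of other genes pass by the same rule was not computed, so these counts stand without a background. Liver had 32 (19 positive, 13 negative), brain 31 (24 and 7), small intestine 24 (all positive), heart 21 (14 and 7), skeletal muscle 19 (15 and 4), kidney 16 (7 and 9) and spleen 11 (all positive). Scaling within the tissue by TMM changed these splits. It gave 17 positive and 21 negative pairs in liver, 13 and 4 in small intestine and 8 and 12 in skeletal muscle. Kidney then had 25 pairs (11 and 14). Without the mitochondrial genes the splits were 15 and 1 in small intestine, 10 and 8 in skeletal muscle and 11 and 12 in kidney.

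**Figure D3:**
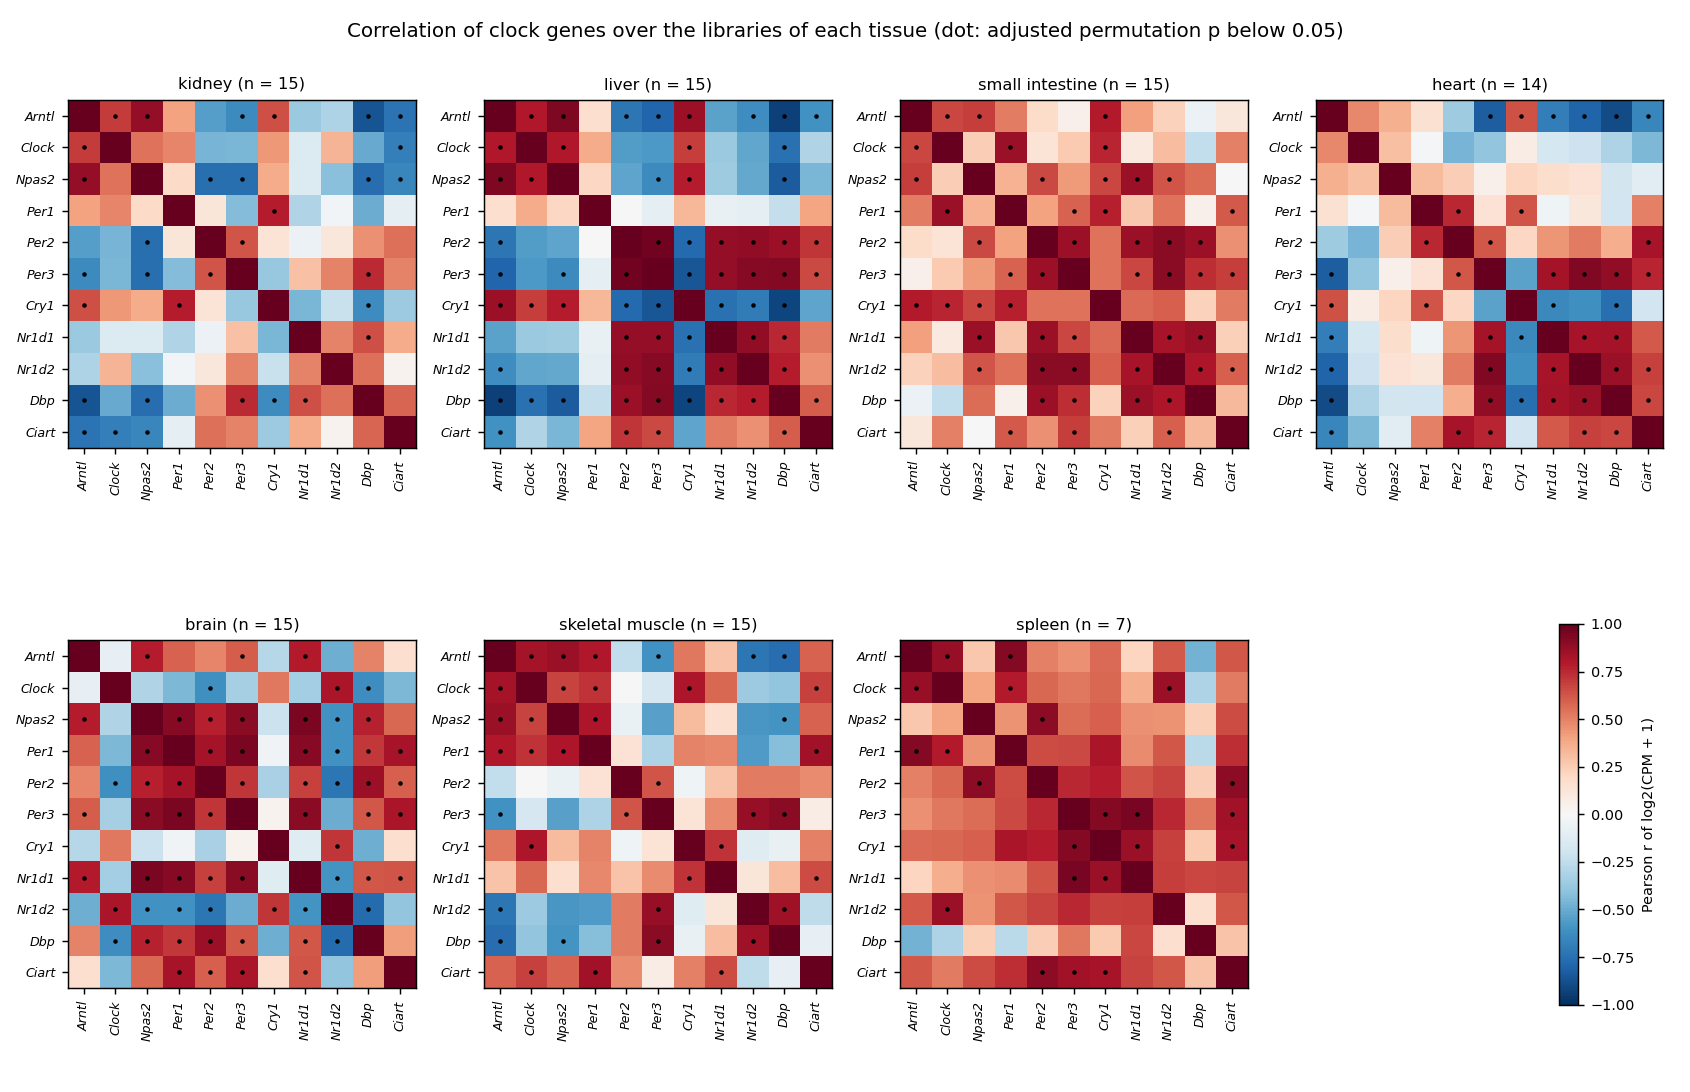
Pearson r of log2(CPM + 1) between each pair of clock genes over the libraries of a tissue, 1 panel per tissue, red positive and blue negative, with a dot where the adjusted permutation p was below 0.05. Liver and heart show a block of Per3, Nr1d1, Nr1d2 and Dbp in red set against Arntl in blue. Kidney also shows the pair of Dbp and Arntl in blue. Brain shows Nr1d2 in blue against Nr1d1, Per1, Per2 and Dbp.

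Liver had the most passing pairs, and they split into 2 arms. The library of highest Dbp (281 CPM) had 1.22 CPM of Arntl, and the library of lowest Dbp (2.05 CPM) had 12.4 CPM. Libraries with more Dbp had less Arntl, and for this pair r = -0.93 (permutation p = 1e-05, adjusted p = 0.000481), with rho = -0.92 (permutation p = 1e-05, adjusted p = 0.000642) and r = -0.93 without the 2 libraries farthest from the median of Arntl. The partners Npas2 and Clock moved with Arntl (r = 0.93, adjusted permutation p = 0.000481 and r = 0.80, adjusted permutation p = 0.0032), as did Cry1 (r = 0.86, adjusted permutation p = 0.00122). On the other side, Per3 and Dbp rose and fell together, with r = 0.92 (permutation p = 3e-05, adjusted p = 0.00055), with rho = 0.96 (permutation p = 1e-05, adjusted p = 0.000642) and r = 0.91 without the 2 libraries farthest from the median of Per3. Per2 correlated with Per3 at r = 0.97, adjusted permutation p = 0.000481, Nr1d1 with Nr1d2 at r = 0.89, adjusted permutation p = 0.000481, and Cry1 with Dbp at r = -0.92, adjusted permutation p = 0.000481. Of the 9 other members, 4 had r of 0.7 or more with Dbp and 3 had -0.7 or less, where 2.73% and 9.18% of all genes in liver did. Per1 belonged to neither arm, with r of -0.24 with Dbp and 0.17 with Arntl. In the same libraries Dbp correlated with the library total at -0.81 (adjusted permutation p = 0.0037) and with the mitochondrial share at 0.64 (0.0458), and their part in the result was not tested.

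Kidney and heart repeated the opposition of Arntl and Dbp. In kidney, Dbp was 259 CPM in its highest library, where Arntl was 1.32 CPM, and 16.7 CPM in its lowest, where Arntl was 12.7 CPM. The pair had r = -0.86 (permutation p = 3e-05, adjusted p = 0.00055), with rho = -0.84 (permutation p = 0.00015, adjusted p = 0.00231) and r = -0.84 without the 2 libraries farthest from the median of Arntl. Npas2 opposed Dbp, Per2 and Per3 there (r of -0.76, -0.76 and -0.76) and moved with Arntl (0.88), and all 4 pairs passed. Of the 9 other members 1 had r of 0.7 or more with Dbp (Per3) and 1 had -0.7 or less (Npas2), against 0.311% and 1.09% of all genes in kidney.

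In heart, Dbp was 204 CPM in its highest library, with Arntl at 3.42 CPM, and 10.1 CPM in its lowest, with Arntl at 24.4 CPM. The pair had r = -0.90 (permutation p = 1e-05, adjusted p = 0.000481), with rho = -0.88 (permutation p = 7e-05, adjusted p = 0.00135) and r = -0.91 without the 2 libraries farthest from the median of Arntl. The Dbp block of Per3 (r = 0.89, adjusted permutation p = 0.000962), Nr1d2 (r = 0.87, adjusted permutation p = 0.000994) and Nr1d1 (r = 0.83, adjusted permutation p = 0.00221) passed in liver as well. Per2 stood outside it, with r of 0.36 with Dbp, and correlated instead with Per1 (r = 0.75, adjusted permutation p = 0.0202, rho = 0.40, and r = 0.33 without the 2 libraries farthest from the median of Per1) and Ciart (r = 0.82, adjusted permutation p = 0.00165). In heart 3 of 9 members had r of 0.7 or more with Dbp and 1 had -0.7 or less, where 9.3% and 5.04% of all genes did. The mitochondrial share correlated with Dbp at 0.69 (adjusted permutation p = 0.0241), and its part was not tested.

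**Figure D4:**
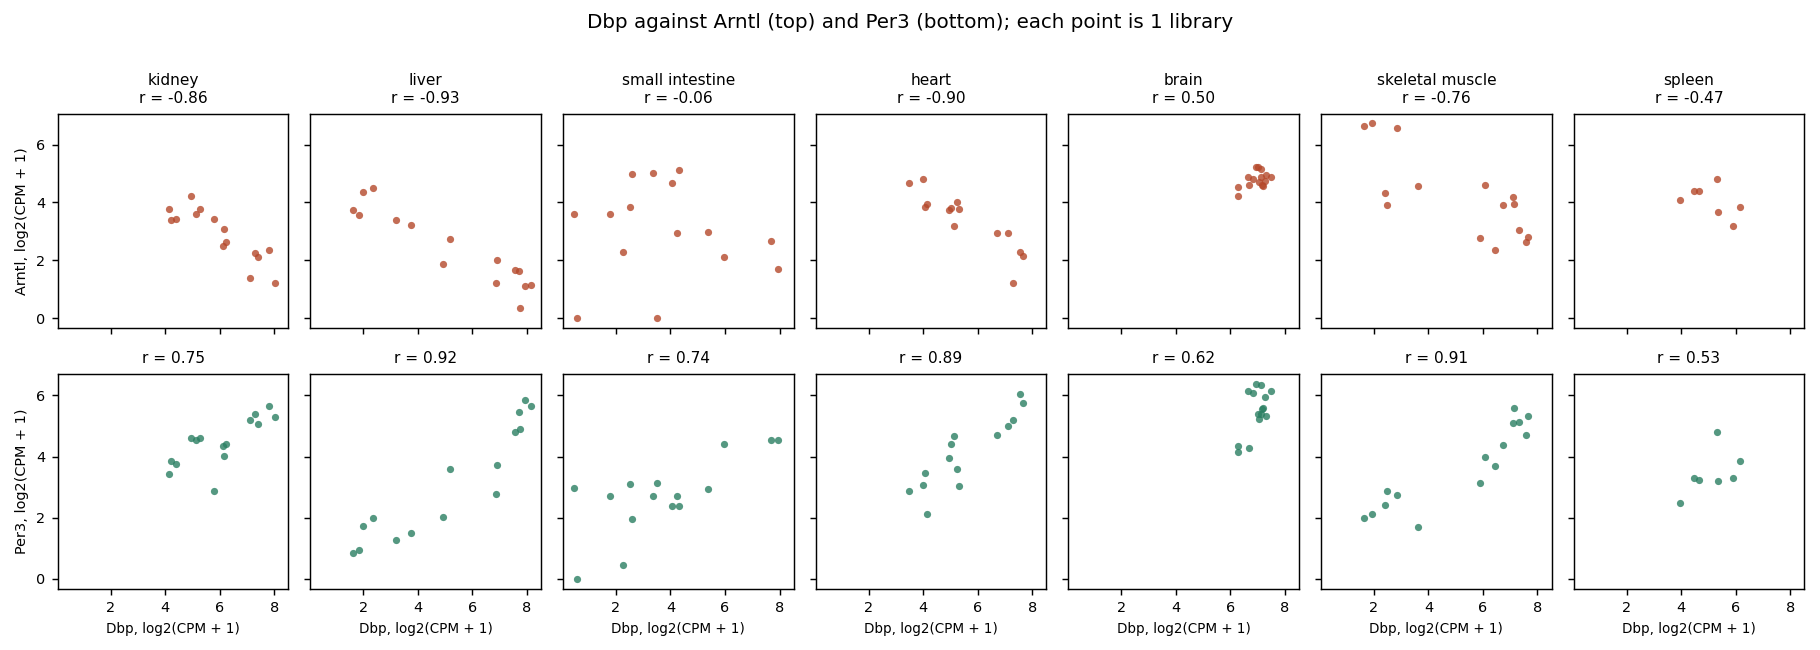
Arntl (top row, y axis) and Per3 (bottom row, y axis) against Dbp (x axis) in each library, all as log2(CPM + 1), 1 column per tissue with r above each panel. Arntl falls with Dbp in kidney, liver, heart and skeletal muscle, Per3 rises with it in all 7 panels, and the brain libraries form a compact cloud at high Dbp.

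Skeletal muscle libraries fell into a low and a high range of Dbp. In 6 libraries Dbp was 2.14 to 11.3 CPM and in the other 9 it was 58.9 to 199 CPM, a gap of 38.0% of the whole range on the log2 scale. Over all 15, r = -0.76 (permutation p = 0.00099, adjusted p = 0.00561), with rho = -0.67 (permutation p = 0.00813, adjusted p = 0.0316) and r = -0.61 without the 2 libraries farthest from the median of Arntl. Within the low and high ranges the r of Arntl and Dbp was -0.47 (n = 6) and -0.19 (n = 9) as a description, since each range holds only part of the spread of Dbp. Per3 and Dbp had r = 0.91 over all libraries, -0.10 within the low range and 0.86 within the high range. Nr1d2 and Dbp had r = 0.84 over all libraries, 0.64 within the low range and 0.81 within the high range.

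Muscle libraries 10 to 12 held the highest Arntl of any library, with Dbp at 2.14 to 6.26 CPM, Per1 at 236 to 321 CPM and Ciart at 22 to 29.2 CPM. In muscle Arntl and Per1 had r = 0.80, adjusted permutation p = 0.0032, and Per1 and Ciart r = 0.84, adjusted permutation p = 0.000994. Arntl and Ciart did not pass (r = 0.59, adjusted permutation p = 0.0503, and r = 0.29 without the 2 libraries farthest from the median of Arntl), and Ciart and Dbp had r of -0.08. In skeletal muscle 2 of 9 members had r of 0.7 or more with Dbp (background 11.1%) and none had -0.7 or less (4.11%). Clock and Dbp, at r = -0.39 on CPM, had -0.81 with TMM scaling (adjusted permutation p = 0.00283).

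In small intestine Arntl and Dbp did not pass the test. Arntl and Dbp had r = -0.06 over 15 libraries and -0.48 (adjusted permutation p = 0.173) without the 2 libraries rich in mitochondrial counts, in which Arntl was at 0. The output side held: r = 0.86, adjusted permutation p = 0.000481 for Nr1d1, r = 0.86, adjusted permutation p = 0.00077 for Per2, r = 0.81, adjusted permutation p = 0.00207 for Nr1d2 and r = 0.74, adjusted permutation p = 0.00853 for Per3. Without the 2 libraries these were 0.90, 0.88, 0.80 and 0.69, and all still passed. Of the 9 other members 4 had r of 0.7 or more with Dbp and none had -0.7 or less, where 5.04% and 0.181% of all genes did. Without the 2 libraries 3 had 0.7 or more (Per2, Nr1d1 and Nr1d2) and 1 had -0.7 or less (Clock), where 4.48% and 15.7% of all genes did. The number of passing pairs fell from 24 to 15 (13 positive and 2 negative) without the 2 libraries. Both negative pairs involved Clock, with Dbp at -0.73 (adjusted permutation p = 0.0213) and with Nr1d1 at -0.70 (0.0298). Dbp also correlated with the summed level of the intestinal markers at 0.79, and the part of this in the result was not tested.

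Npas2 in the intestine moved with the repressor Nr1d1 rather than against it, at r = 0.86, adjusted permutation p = 0.00105 and 0.76 (adjusted permutation p = 0.0119) without the 2 libraries. Libraries 13 and 14 had both the highest Nr1d1 (312 and 339.7 CPM) and the highest Dbp (245 and 206 CPM), with Npas2 at 23.3 and 34 CPM. In libraries 10 to 12 Clock was at 155 to 176 CPM, above the 78.7 CPM of the next library, and Dbp at 0.361 to 4.65 CPM.

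In brain Dbp kept a narrow range, and several correlations changed sign without 3 libraries. Dbp was 77.3 to 178 CPM over all brain libraries. Libraries 1, 2 and 3 had Per1 at 42.7 to 62.7 CPM, against 91.3 to 219 CPM in the other 12. They had Per3 at 16.6 to 19.4 CPM against 36.1 to 82.5 CPM, Npas2 at 15.8 to 21.4 against 29.4 to 66.9 CPM, and Nr1d1 at 49.1 to 76.8 against 98.8 to 204 CPM. Nr1d2 went the other way, at 172 to 221 CPM against 79.3 to 131 CPM. None of these ranges overlapped. Clock (68.5 to 87.9 against 35 to 67.1 CPM) and Per2 (17.1 to 17.6 against 27.3 to 49.7 CPM) did not overlap either, whereas Cry1, Ciart and Dbp did. Libraries 1 to 3 were set apart after seeing the data, and the share of all genes without overlap is not given here.

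Over all 15 brain libraries Nr1d2 opposed Nr1d1 (r = -0.60, adjusted permutation p = 0.046), Dbp (r = -0.77, adjusted permutation p = 0.0058) and Per2 (r = -0.72, adjusted permutation p = 0.0127). Without libraries 1 to 3 these were 0.56, -0.24 and 0.08, with adjusted permutation p-values of 0.128, 0.571 and 0.854. Per3 and Dbp went from 0.62 to -0.22, Nr1d1 and Dbp from 0.62 to -0.39, and Per1 and Dbp from 0.71 to -0.18. None of the 3 passed without these libraries. The number of passing pairs fell from 31 to 10, all positive, and by rank correlation over all 15 libraries it was 14.

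Every pair among Per1, Per3, Cry1 and Nr1d2 passed over the other 12 brain libraries, but 4 of these 6 pairs did not pass with that sign over all 15. Per3 and Nr1d2 had r = -0.49 and Per1 and Nr1d2 -0.61 (adjusted permutation p = 0.041) over 15, against 0.85 and 0.77 over 12. Per1 and Cry1 went from -0.04 to 0.72, and Per3 and Cry1 from 0.04 to 0.74. The pairs that passed with 1 sign over both sets of libraries were Clock with Nr1d2, Npas2 with Nr1d1, Per1 with Per3, Per1 with Ciart and Cry1 with Nr1d2, all positive. Over the 12, Cry1 and Nr1d2 had r = 0.89 (adjusted permutation p = 0.00163), Per1 and Per3 0.79 (0.00959) and Npas2 and Nr1d1 0.74 (0.0253). Dbp belonged to no passing pair over the 12. Arntl and Dbp had r = 0.50 (adjusted permutation p = 0.116) over 15 libraries and -0.18 over 12. In brain 3 of 9 members had r of 0.7 or more with Dbp and 1 had -0.7 or less, against 9.8% and 10.1% of all genes, and without libraries 1 to 3 the counts were 0 and 0, against 2.02% and 0.999%. A pair of further measures moved with the 15 libraries: the heat shock genes Hspa1a, Hspa1b and Hsph1 (r = -0.87 with Nr1d2 and 0.74 with Dbp, against -0.56 and 0.04 without libraries 1 to 3) and the leukocyte markers (r = -0.80 with Dbp). Their part in the result was not tested.

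Spleen had 7 libraries, in which the smallest p that the exact test over 5040 orders can give is 0.000198. Library 4 was the highest in Per1 (299.9 CPM, the next 86.8), Per3 (27.2, the next 13.3) and Cry1 (32.2, the next 19.7). Over 7 libraries 11 pairs passed, and without library 4 there were 3. The 3 were Arntl with Per1 at 0.98 (exact permutation, adjusted p = 0.0122), Nr1d1 with Dbp at 0.89 (0.0359) and Per3 with Nr1d1 at 0.88 (0.0404). Arntl and Dbp had r = -0.47 over 7 and -0.70 over 6 libraries, and neither passed. None of the 9 other members reached 0.7 in either direction with Dbp, where 14.5% and 15.7% of all genes did. Without library 4, Nr1d1 (0.89) and Per3 (0.79, adjusted exact permutation p = 0.0865) had 0.7 or more and Per1 (-0.77, 0.155) had -0.7 or less, against 20% and 24% of all genes. Dbp correlated with red cell markers at -0.78 and with leukocyte markers at -0.84 in spleen, and their part was not tested.

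Across tissues 13 of the 55 pairs kept 1 sign over all libraries, 12 of them positive, and 6 of the 13 also kept it without the brain, spleen and small intestine libraries that stood apart. How many pairs of other genes keep 1 sign was not computed. The count with TMM scaling within the tissue is not given here. Per3 and Dbp were positive in all 7 tissues (r of 0.53 to 0.92, 6 passing), as were Per2 and Per3 (0.62 to 0.97, 6 passing), Arntl and Npas2 (0.27 to 0.93, 5 passing) and Nr1d1 and Dbp (0.31 to 0.86, 5 passing). In brain the first, the second and the last of these turned negative without libraries 1 to 3, as did Arntl and Per1 (-0.08). Arntl and Npas2 turned to -0.07 in spleen without library 4. Per3 was positive in all 7 with Nr1d1 (0.30 to 0.95, 5 passing) and Ciart (0.07 to 0.84, 5 passing), and Per2 with Ciart (0.46 to 0.89, 4 passing) and Dbp (0.25 to 0.86, 3 passing). Clock and Cry1 (0.08 to 0.81) passed in 3 tissues, and Arntl with Per1, Npas2 with Per1 and Nr1d1 with Ciart in 2 each. Npas2 and Per1 turned to -0.06 and Nr1d1 and Ciart to -0.16 in small intestine without the 2 libraries. Clock and Dbp were the pair negative in all 7 (-0.74 to -0.24, 2 passing). Per1 and Dbp were positive in small intestine and brain and negative in the other 5, passing only in brain, with a median of -0.24. The differences in r between tissues were not tested.

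Per1 followed another set of genes. The glucocorticoid-response list holds Fkbp5, Tsc22d3, Sgk1, Zbtb16, Klf9 and Errfi1, which are induced by the glucocorticoid receptor in many tissues, and was summarised as the mean of their log2(CPM + 1). Kidney library 15, with the lowest Per1 of that tissue (17.2 CPM), also had the lowest level of all 6 genes, among them Fkbp5 (21.8 CPM, median 205), Zbtb16 (0.756 CPM, median 23) and Tsc22d3 (16.4 CPM, median 91.1). It also had the highest mitochondrial share in kidney (45.5%, median 16.2%). A larger share lowers the CPM of all other genes together, and its part in these values was not tested. Over the 15 kidney libraries the list and Per1 had r = 0.94 (permutation p = 1e-05, adjusted p = 0.00077), with rho = 0.84 (permutation p = 0.00016, adjusted p = 0.00739) and r = 0.88 without the 2 libraries farthest from the median of the list. In heart r = 0.80 (permutation p = 0.00032, adjusted p = 0.00448), with rho = 0.76 (permutation p = 0.00244, adjusted p = 0.0245) and r = 0.75 without the 2 libraries farthest from the median of the list. In skeletal muscle r was 0.82 (adjusted permutation p = 0.00448, rho = 0.66, adjusted p = 0.0558), and in small intestine 0.86 (0.00277).

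In spleen the order of the 7 libraries by Per1 was that by the list (exact permutation, rho = 1, p = 0.000397, adjusted p = 0.00965; r = 0.98, adjusted p = 0.0037). Library 4, the highest in Per1, was the highest in each of the 6 genes, with Fkbp5 at 536 CPM against at most 127 CPM in the others. Without it r was 0.98 (adjusted permutation p = 0.0165). Liver (0.57, adjusted permutation p = 0.109) and brain (0.47, 0.215) did not pass, but brain without libraries 1 to 3 had 0.79 (adjusted permutation p = 0.0158). Without its 2 mitochondria-rich libraries small intestine had 0.76 (adjusted permutation p = 0.0265).

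**Figure D5:**
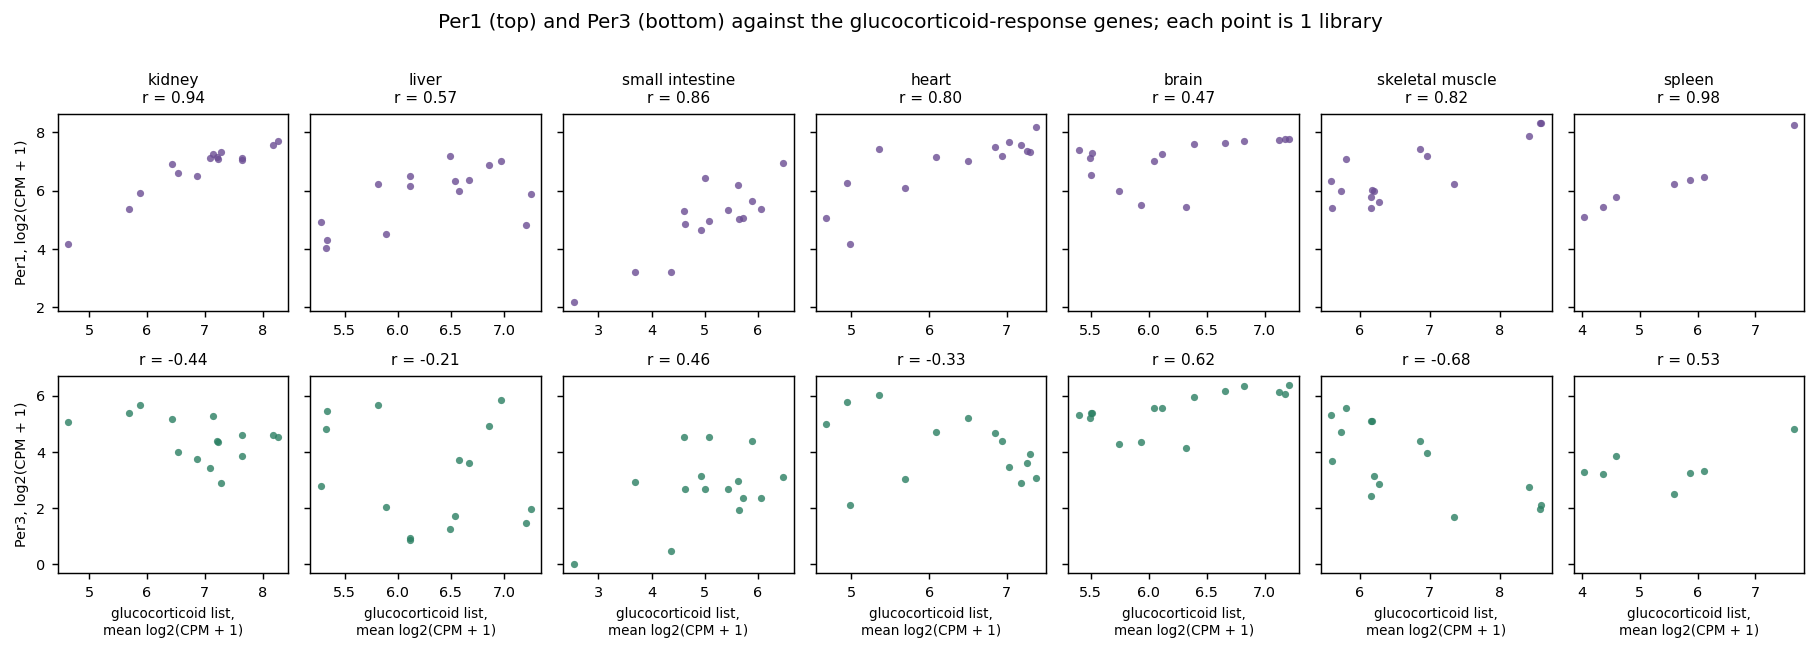
Per1 (top row) and Per3 (bottom row), as log2(CPM + 1) on the y axis, against the mean log2(CPM + 1) of 6 glucocorticoid-response genes on the x axis, 1 point per library and 1 column per tissue, with r above each panel. Per1 rises with the list in every panel (r of 0.47 to 0.98), whereas Per3 runs from -0.68 in skeletal muscle to 0.62 in brain.

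Cry1 shared this relation in kidney (r = 0.84, adjusted permutation p = 0.0034), heart (0.89, 0.00198) and small intestine (0.81, 0.0113), though in small intestine without the 2 libraries it was 0.62 (adjusted permutation p = 0.104). Per2 did not pass with the list in any tissue (r of -0.26 to 0.60). Dbp was negative with it in all tissues other than small intestine, passing in skeletal muscle (r = -0.73, adjusted permutation p = 0.02). There Arntl (0.94), Npas2 (0.87), Clock (0.70), Per3 (-0.68) and Nr1d2 (-0.82) passed as well, Per3 and Nr1d2 with negative sign. Per1 also followed the immediate early genes, such as Fos, Egr1 and Junb, in skeletal muscle (r = 0.97, adjusted permutation p = 0.00077) and small intestine (0.83, 0.00213).

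Clock moved with the immediate early list in liver (r = 0.88, adjusted permutation p = 0.00213), small intestine (0.92, 0.00077), skeletal muscle (0.79, 0.00642) and kidney (0.69, 0.0334). In small intestine it also followed Cirbp and Rbm3, RNA-binding proteins induced by cold (0.97, 0.00077), and without the 2 libraries r was 0.95 (adjusted permutation p = 0.00231). The mitochondrial share ran against Clock in small intestine (-0.86), skeletal muscle (-0.81) and kidney (-0.78), and all 3 passed. CPM divides by a total that holds the mitochondrial counts, so a larger share by itself lowers the CPM of every other gene. These 3 values include that effect, and their p-values do not separate it from a relation of Clock. All relations with a list or library measure come from a family of 462, of which 78 passed, and 64 passed without the mitochondrial genes.

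The genes whose pattern was most like that of Dbp were found by averaging the r with Dbp over the 7 tissues, among 9959 genes with a median of at least 1 CPM in each. This is a description, without a test, over the 96 libraries of the study. The median of this mean r over all genes was -0.04, with 90% of genes between -0.44 and 0.42. Per3 ranked 2 of 9959 (mean r 0.77), after Trim7, a ubiquitin ligase (0.79), and Nr1d1 ranked 14 (0.67). Per2 ranked 66 (0.59) and Tef, the D-box paralog of Dbp, 76 (0.58). The other 8 of the 10 highest were Hexdc, Sh3glb2, Tha1, Ocel1, Tepsin, Banp, Sirt7 and Zfp467, with mean r of 0.69 to 0.76.

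Among the genes that opposed Dbp, Nfil3, the repressor that competes for D-boxes, was 2 from the bottom of the 9959 (mean r -0.68) and negative in every tissue, from -0.84 in kidney to -0.30 in small intestine. With TMM scaling it was 28 from the bottom. The lowest was Eif2s2, a subunit of translation initiation factor 2 (-0.69), and Hmox1, the heme oxygenase, came next above Nfil3 (-0.67), followed by Zwint, Txnl1, Etf1, Rnf149, Psmd12, Dnttip2 and Pir (-0.67 to -0.64). Of the other members Nr1d2 ranked 345 from the top (0.46, with -0.77 in brain), Ciart 597 (0.40), and Per1 6106 (-0.12). Npas2 was not ranked, since its median was below 1 CPM in skeletal muscle. Cry1 was 1228 from the bottom (-0.34), Clock 451 (-0.45) and Arntl 227 (-0.50).

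Of a list of 10 clock output genes, Usp2, a deubiquitinase under clock control in liver, was positive with Dbp in all 7 tissues (r of 0.04 in heart to 0.79 in small intestine). Nampt, the NAD salvage enzyme, was negative in all tissues other than small intestine. It reached -0.93 over all brain libraries, where it was among the 3 lowest genes of the tissue. Tfrc, the transferrin receptor, ran from -0.74 in spleen to 0.95 in skeletal muscle. Wee1, a cell cycle kinase, ran from -0.81 in spleen to 0.75 in skeletal muscle. Pdk4, a kinase that restrains pyruvate use, was negative in every tissue other than small intestine (-0.90 in skeletal muscle and -0.80 in kidney). The other 5 genes on the list, Tsc22d3, Alas1, Por, Marveld1 and Leo1, had r between -0.78 and 0.57.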

How the data were processed

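Frozen tissue was homogenised, total RNA was isolated with TRIzol and cleaned on columns, and a company prepared and sequenced the libraries (per the labels' protocols). GRCm39 and DESeq2 are named in the submitters' processing notes. No aligner, counting tool, annotation or strand setting is given there. The authors deposited estimated counts per gene: 26.8% of the values above 0 were not whole within 1e-06, and they were rounded for count tests. CPM was computed as the count divided by the library's column sum, times 1000000. The 310 rows without a gene symbol held at most 0.113% of a library. A table of normalised counts was not used.

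Tissues were compared with edgeR 4.0.16 (R 4.3.3) by the quasi-likelihood test with TMM scaling over all 96 libraries, 1 coefficient per tissue. P-values were adjusted by Benjamini-Hochberg over the 20100 genes tested, and a call needed an adjusted p below 0.05 and a log2 fold change of at least 1 in size. Correlations used log2(CPM + 1), a pseudocount of 1, two-sided permutation tests with 100000 resamples (exact over pairings in spleen) and Benjamini-Hochberg adjustment over 385 pairs, or over 462 pairs of a gene with a list or library measure. The smallest p that the resamples can give is 1e-05. Alternatives were DESeq2 1.42.0, its size factors, no filter on low counts, the running number of the columns as a block, a pseudocount of 0.5, rank correlation, TMM within a tissue, and leaving out mitochondrial genes or single libraries. Python 3.11.15, numpy 2.4.6, pandas 2.3.3, scipy 1.17.1 and statsmodels 0.14.6 were used, and the scripts were tested on simulated data. The genes named are the 10 members, fixed lists of other clock, output and response genes, and the 10 genes of highest and of lowest mean r with Dbp. Members and lists were chosen with earlier results of these data known. A few genes that these rules select are not reported here.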

Additional observations from a re-analysis of the deposited data

Results flagged for a closer look

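In spleen, a group of 7 libraries, Dixon's criterion was applied to unlogged CPM (critical value 0.568 of the range). By it, 3 of the 10 genes had 1 library far from the others. The log2 scale used for the correlations draws high values closer, and no flags on that scale are given here. Library 4 was at 299.9 CPM in Per1, where the next library was at 86.8 CPM. The same library was at 27.2 CPM in Per3, where the next was at 13.3 CPM, and at 32.2 CPM in Cry1, where the next was at 19.7 CPM. Chance flags about 1 in 20 such groups if values are normally distributed, which unlogged CPM need not be. The 3 genes share the library. Its Fkbp5, Tsc22d3, Sgk1, Zbtb16, Klf9 and Errfi1 were also the highest in spleen, and the part of this in the 3 values was not tested.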

How the results depend on the processing

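With the running number of the columns as a block, chosen after seeing the data, 1 member was called in liver (2 before) and 0 in heart (1 before), and 1 in kidney, 6 in small intestine, 4 in brain, 5 in skeletal muscle and 7 in spleen. The labels do not say that equal numbers mark 1 animal. No called log2 fold change of a member between tissues changed sign under any alternative run, but 3 small ones without a call did: in liver Per3 went from 0.19 to -0.39 and Nr1d1 from 0.04 to -0.24 with the block, and Cry1 in heart went from 0.08 to about 0 without the 2 small intestine libraries. The single call in heart (Per1) became 0 calls without the filter on low counts and 0 without the 2 small intestine libraries. With TMM within the tissue, 25 kidney pairs passed in place of 16, 5 spleen pairs in place of 11, and r of Arntl and Clock in small intestine turned to -0.19. By rank correlation 14 pairs passed in small intestine (24 before), 14 in brain (31) and 6 in spleen. Without the 2 intestinal libraries 15 passed there. Leaving out brain libraries 1 to 3 and spleen library 4 was chosen after seeing the data, and left 10 and 3 pairs. Without the 3 brain libraries the r of Per1 and Dbp turned to -0.18, of Per3 and Dbp to -0.22, of Nr1d1 and Dbp to -0.39, of Per2 and Per3 to -0.14, of Per3 and Nr1d2 to 0.85, of Nr1d1 and Nr1d2 to 0.56 and of Per1 and Cry1 to 0.72. With TMM 2 clock genes stood among the 100 genes most like Dbp (4 before) and 2 among the 100 least like it (1 before). The cause was not tested. At 3 counts the shallowest library resolves 0.453 CPM, which limits Npas2 in liver, spleen and skeletal muscle and Arntl in the 2 intestinal libraries.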

Other observations

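The columns of kidney, liver, small intestine, heart and skeletal muscle carry running numbers that were matched between tissues as a description, since nothing states that equal numbers mark 1 animal. Over libraries of equal number, Dbp correlated between these organs at a median r of 0.67 over 10 organ pairs, from 0.56 to 0.88 (liver and heart). Arntl had a median r of 0.69 over the same pairs, Per3 0.54 and Per1 0.49. Cry1 had a median of 0.07, although kidney and heart reached 0.85. Between brain and the 5 other organs the median r was 0.10 for Dbp, -0.21 for Arntl and 0.48 for Cry1. Neighbouring numbers also held similar levels, so these values carry no test.

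Genes of high r with Dbp in brain, among those with a median of at least 5 CPM, included Sppl2b (r = 0.96) and Cyp46a1 (0.93), the enzyme that hydroxylates cholesterol in neurons. The lowest there were Birc2, Brcc3 and Nampt, each at -0.93.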
